A study of Mus musculus with 18 samples.

Results

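A set of 10 mouse genes whose human counterparts carry common variants associated with Alzheimer's disease, or which encode a protein central to its pathology, were followed by symbol through the frontal cortex of 3 genotypes: Spi1, Cd33, Ms4a6d, Abca7, Bin1, Picalm, Cd2ap, Sorl1, Ptk2b and Mapt. All 10 of the 55487 genes in the count table that bear these names were found once each, and all 10 were among the 17414 genes that passed the filter on low counts. RNA from the frontal cortex of 18 mice aged 9 to 10 months was sequenced as stranded mRNA libraries, with 3 females and 3 males of each genotype. WT mice were described in the study's methods as littermates that carried the floxed Fntb allele on both chromosomes and no Cre, and in the deposited record as C57BL/6J, so their background is not settled. APP/PS1 mice carried the APPswe and PSEN1dE9 transgenes with the floxed allele and no Cre. APP/PS1/FTnKO mice carried the same transgenes, the floxed allele and a Cre driven by the CaMKIIα promoter, which is active in excitatory neurons of the forebrain, so that the farnesyltransferase encoded by Fntb is deleted from those neurons and not from microglia, astrocytes or oligodendrocytes. Each library was 1 mouse, and a bulk library of cortex mixes all of its cell types.

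The 10 genes fall into groups by what their proteins do. Spi1 encodes PU.1, the transcription factor on which microglia and other myeloid cells depend. Cd33 encodes a sialic acid receptor of the Siglec family, and Ms4a6d a membrane-spanning protein of the MS4A cluster, both found in myeloid cells, while Abca7 encodes a lipid transporter of the ABCA family made in microglia and in neurons. Bin1, Picalm and Cd2ap encode proteins that bend membranes, bring clathrin to them and link them to actin, which together serve endocytosis. Sorl1 encodes a sorting receptor that carries the amyloid precursor protein between endosomes and the Golgi. Ptk2b encodes a calcium-activated kinase of the focal adhesion kinase family that is abundant in forebrain neurons, and Mapt encodes tau, the microtubule-binding protein of neurofibrillary tangles.

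The promoters of Cd33 and Sorl1 are shown because Cd33 is a surface receptor of the cells that make PU.1 and Sorl1 is the member whose log2 fold change against WT was the most negative in both transgenic genotypes. RefSeq sequences of GRCm38.p6 were matched for 5 members (Cd33, Picalm, Sorl1, Abca7 and Cd2ap), and the 250 bases that precede the start site are printed 5′ to 3′ on the strand of the gene, with GAGGAA, the core of the PU.1 site, in capitals. The Cd33 stretch lies at chr7:43533172-43533421 on the minus strand and the Sorl1 stretch at chr9:42124298-42124547 on the minus strand.
Cd33: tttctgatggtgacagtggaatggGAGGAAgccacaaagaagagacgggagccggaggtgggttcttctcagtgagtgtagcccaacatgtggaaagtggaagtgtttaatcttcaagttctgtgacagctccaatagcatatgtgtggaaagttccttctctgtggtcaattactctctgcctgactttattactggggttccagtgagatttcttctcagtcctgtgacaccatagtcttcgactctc
Sorl1: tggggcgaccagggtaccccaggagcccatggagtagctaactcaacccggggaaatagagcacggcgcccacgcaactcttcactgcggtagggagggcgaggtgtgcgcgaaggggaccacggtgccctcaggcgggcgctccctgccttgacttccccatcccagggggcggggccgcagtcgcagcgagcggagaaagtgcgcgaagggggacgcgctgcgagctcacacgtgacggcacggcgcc
GAGGAA and its reverse complement TTCCTC were searched in windows of 300 bases, from 250 before to 50 after the start, and 28.3% of 32851 windows in the reference held at least 1 match on either strand. The Cd33 window held 1 match, which begins 226 bases before the RefSeq start. That start lies inside the span that GENCODE M21 gives for Cd33, whose 5′ end is at base 43544428, whereas the printed Sorl1 stretch ends where the GENCODE span of Sorl1 begins. The Picalm window held 2, which begin 57 and 31 bases before the start. The windows of Sorl1, Abca7 and Cd2ap held 0. A match of these letters is a description of the window and not a measured binding site.

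The total counts per mouse were 15925432 to 21030935. App, which the transgene adds to, had 2897 ± 283 CPM (counts scaled to the library size after TMM normalization) in APP/PS1 and 2972 ± 517 in APP/PS1/FTnKO mice (SD, n = 6 each), against 1534 ± 51.2 in WT mice (n = 5). Fntb, counted over the whole gene and not over the deleted exons alone, had 11.8 ± 2.76 CPM in APP/PS1/FTnKO, 20.2 ± 8.06 in APP/PS1 and 22.2 ± 8.60 in WT mice. The medians were 12.6, 15.8 and 16.9, and the groups overlapped, with 14.7 CPM in the highest knockout mouse against 14.2 in the lowest APP/PS1 and 14.1 in the lowest WT mouse. WT mouse 19622, a female, stood apart from the others, with 55.4% of 17285 genes outside the range of the other 17 mice. On a scaling of all 18 mice, its summed excitatory neuron markers were 3137 CPM against 6185 to 9958 in the others. Its summed markers of cerebellum, striatum and choroid plexus were 3314 against 301 to 1293. This mouse was kept out of the main comparisons, which rest on 17 mice (5 of the WT and 6 of either transgenic genotype), and its values are given separately. Its part in the values of the full set of 18 was measured by running each comparison with and without it.

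Per length of exon, Mapt, Ptk2b and Bin1 were the most abundant members, and the myeloid Cd33, Spi1 and Ms4a6d were the least. In CPM per kilobase of exon, averaged over the 17 mice (SD), Mapt had 73.5 ± 4.96, Ptk2b 70.1 ± 5.20 and Bin1 61.4 ± 3.99. The ranges of these 3 overlapped between neighbours. Sorl1 had 33.0 ± 5.88, Picalm 10.4 ± 0.499 and Abca7 6.335 ± 0.569, each with a range that touched neither neighbour. Cd2ap had 2.27 ± 0.352, Cd33 1.77 ± 0.394, Spi1 1.43 ± 0.509 and Ms4a6d 0.680 ± 0.2115, and each of these overlapped the next. The exon length, from the GENCODE M21 annotation of GRCm38, ranged from 1735 bases for Ms4a6d to 15864 for Cd2ap. It is the union of all annotated exons, which can exceed any single transcript, so the order of members with close values depends on that choice. In that annotation 185 exon bases of Sorl1 (1.63%) overlap the antisense Gm16214 and 256 of Bin1 (6.22%) overlap A830052D11Rik on the opposite strand, and no exon of the other 8 overlaps another gene. The spread between mice also differed. Over all 17 mice, which takes in any difference between genotypes, the coefficient of variation was 4.82% for Picalm, 6.50% for Bin1, 6.74% for Mapt and 7.43% for Ptk2b. It was 17.8% for Sorl1, 22.3% for Cd33, 31.1% for Ms4a6d and 35.5% for Spi1, of which Ms4a6d rested on only 12 to 37 reads per mouse and Spi1 on 37 to 108. Within the genotypes the order changed, as given here for WT, APP/PS1 and APP/PS1/FTnKO. Cd33 had 5.44%, 26.3% and 15.8%, Ms4a6d 19.3%, 39.3% and 30.01% and Spi1 20.6%, 24.8% and 29.7%. Bin1 in WT mice (7.57%) was above Cd33. Cd33 rested on 181 to 217 reads per WT mouse, so counting error may be much of its WT spread.

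**Figure D1:**
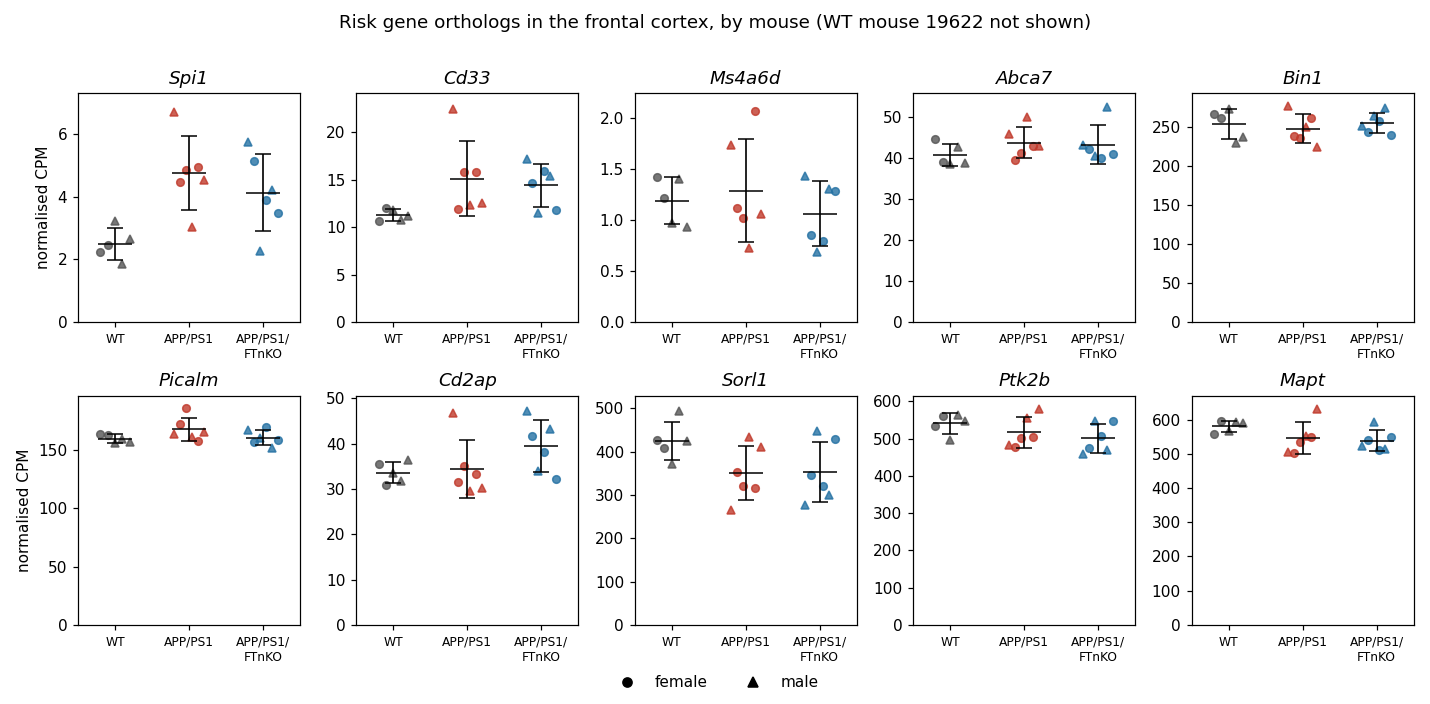
Normalised CPM (y axis, linear from 0) of the 10 genes in each of 17 mice, by genotype, with circles for females and triangles for males and bars for the mean and SD (5, 6 and 6 mice). Spi1 lay at 1.85 to 3.23 in WT and at 3.04 to 6.71 in APP/PS1 mice, while Picalm, Bin1, Ptk2b and Mapt covered much the same heights in the 3 genotypes.

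The first comparison, APP/PS1 against WT mice, addresses the amyloid transgenes, and Spi1 was the 1 member that rose. Spi1 (ENSMUSG00000002111, chr2:91082390-91115756 on the plus strand of GRCm38) had 1.85, 2.25, 2.44, 2.64 and 3.23 CPM in the 5 WT mice. In the 6 APP/PS1 mice it had a lowest value of 3.04, a median of 4.69 and a highest value of 6.71 CPM. Every APP/PS1 mouse but 1 (19619, a male) was above every WT mouse, and the groups overlapped through that mouse and WT mouse 19101. The change was 1.92-fold, a log2 fold change of 0.94 with an SE of 0.23 and a 95% interval of 0.46 to 1.42 (edgeR's quasi-likelihood test, adjusted by Benjamini-Hochberg over 17414 genes, adjusted p = 0.0484). The value stood just inside the threshold of 0.05, and 246 genes had a p as small or smaller. With all 18 mice the log2 fold change was 1.12 and the adjusted p 0.0527 in edgeR. The call was also lost with limma-voom (adjusted p = 0.0753), with a minimum count of 50 (adjusted p = 0.0503), with RNA quality as a covariate (log2 fold change 0.56, adjusted p = 0.403) and without any 1 of 12 of the 17 mice.

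That 1 of 10 members passed is read against 1.5% of all tested genes that passed in either direction and 1.32% that passed and were higher. At an unadjusted p below 0.05, 2 members (Spi1 and Cd33) and 14% of all genes passed. The groups of mice did not overlap for 0 of 10 members and for 2.4% of all genes. Of the 10 members, 6 had a log2 fold change above 0, and the median over members was 0.055 against -0.0023 over all tested genes, of which 49.4% were above 0.

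Cd33 (ENSMUSG00000004609, chr7:43524216-43544428, minus strand) had 10.7, 10.7, 11.2, 11.8 and 12.1 CPM in WT mice and 11.9, 14.2 and 22.4 (lowest, median and highest) in APP/PS1 mice. Only the lowest APP/PS1 mouse lay among the WT mice, and the WT values were the tighter, with an SD of 0.615 against 3.98. The log2 fold change was 0.42 with an SE of 0.15, and it did not pass (edgeR, adjusted p = 0.207). With 1 mouse left out it was 0.26 to 0.49, the lowest without 16975, the APP/PS1 mouse with 22.4 CPM. Ms4a6d had 0.930 to 1.42 CPM in WT mice and 0.731 to 2.07 in APP/PS1 mice. Its log2 fold change of 0.10 had a 95% interval of -0.48 to 0.68, on 13 to 37 reads per mouse. Abca7 had 38.6 to 44.7 CPM in WT and 39.7 to 50.1 in APP/PS1 mice, with a log2 fold change of 0.11 and an interval of -0.040 to 0.26.

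Among the endocytosis and sorting genes, Sorl1 had the lowest values relative to WT. Sorl1 (ENSMUSG00000049313, chr9:41964720-42124297, minus strand) had 372, 409, 424, 428 and 493 CPM in WT mice and 266, 337 and 435 (lowest, median and highest) in APP/PS1 mice. Of the APP/PS1 mice, 4 lay below every WT mouse and 2 lay among them. The log2 fold change was -0.28 with an SE of 0.13, and it did not pass (edgeR, adjusted p = 0.366). Picalm, Bin1 and Cd2ap had log2 fold changes of 0.067, -0.030 and 0.043, with 95% intervals of -0.024 to 0.16, -0.16 to 0.098 and -0.19 to 0.28. Of the remaining members, Ptk2b had a log2 fold change of -0.063 (interval -0.20 to 0.073) and Mapt one of -0.087 (interval -0.21 to 0.033). For Picalm, Bin1, Ptk2b and Mapt these intervals end well short of a doubling or a halving in either direction.

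**Figure D2:**
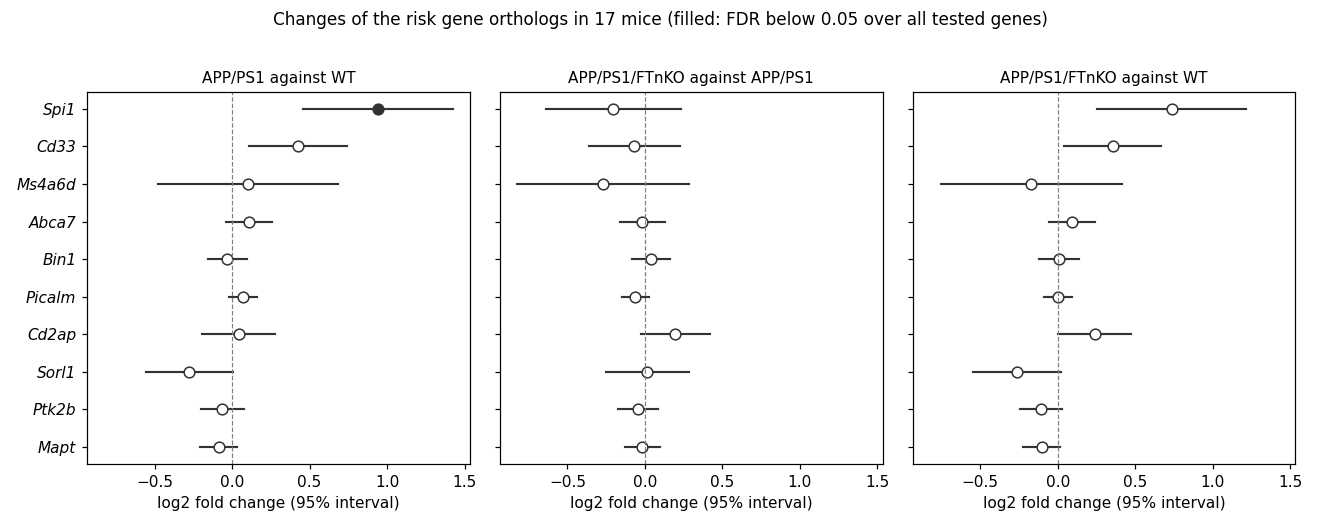
Log2 fold change (x axis, points) with its 95% interval (lines) of the 10 genes in the 3 comparisons among 17 mice, with a filled point where the adjusted p was below 0.05. The 1 filled point is Spi1 in APP/PS1 against WT mice, at 0.94, and the APP/PS1/FTnKO against APP/PS1 panel has every interval crossing 0.

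The second comparison, APP/PS1/FTnKO against APP/PS1 mice, addresses the loss of neuronal farnesyltransferase in mice with the transgenes, and no member passed. The count was 0 of 10 by edgeR and by limma-voom and 0 of the 9 to which DESeq2 gave an adjusted p (all but Ms4a6d), and 0 of 10 at an unadjusted p below 0.05 in edgeR, where 0.327% of all genes passed after adjustment and 11.5% before. Groups did not overlap for 0 of 10 members and for 0.97% of all genes. The largest difference among the more abundant members was that of Cd2ap (ENSMUSG00000061665, chr17:42792951-42876665, minus strand), with 32.2, 39.95 and 47.3 CPM (lowest, median and highest) in APP/PS1/FTnKO and 29.6, 32.5 and 46.7 in APP/PS1 mice. The overlap above 35.0 CPM came from 1 APP/PS1 mouse, 16975, the other 5 lying at 29.6 to 35.0. Its log2 fold change was 0.19 with an SE of 0.11 (edgeR, adjusted p = 0.511), and without 16975 it was 0.30 (adjusted p = 0.155).

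Spi1 in APP/PS1/FTnKO mice had 2.28, 4.05 and 5.74 CPM (lowest, median and highest), a range that reached down among the WT mice and up among the APP/PS1 mice. Against APP/PS1 mice its log2 fold change was -0.20, with a 95% interval of -0.64 to 0.23 that includes no change, and with 1 mouse left out it was -0.33 (without 16974) to -0.072 (without 16975). Ms4a6d had a log2 fold change of -0.27 with an interval of -0.82 to 0.28, and with 1 mouse left out it was -0.40 (without 19619) to -0.082 (without 19723). Cd2ap apart, the other members were closer to 0, between -0.069 for Cd33 and 0.041 for Bin1. Sorl1 had 353 ± 69.8 CPM in APP/PS1/FTnKO mice and 350.3 ± 63.0 without the knockout (SD, n = 6 each), which differ by far less than the spread of either group. The median over the 10 members was -0.031 against -0.0016 over all tested genes.

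The third comparison, APP/PS1/FTnKO against WT mice, shares its mice with the other comparisons, so that its values are not an independent check on either. No member passed in edgeR, while 3.87% of all genes did. At an unadjusted p below 0.05, 3 members passed (Spi1, Cd33 and Cd2ap) and so did 22.1% of all genes. Groups did not overlap for 0 of 10 members and for 5.6% of all genes. Spi1 had a log2 fold change of 0.74 with an SE of 0.23 (adjusted p = 0.077), beside 0.94 in APP/PS1 against WT mice. DESeq2 called it (log2 fold change 0.74, adjusted p = 0.0287), as did edgeR without the filter on low counts (adjusted p = 0.0349), and limma-voom did not (adjusted p = 0.107). Cd33 had 0.36 with an SE of 0.15 (adjusted p = 0.171), beside 0.42. Cd2ap had 0.24 with an SE of 0.11 (adjusted p = 0.219), beside 0.043, and its values in APP/PS1/FTnKO mice were set against 30.9, 31.8, 33.5, 35.5 and 36.4 CPM in WT mice. Sorl1 had -0.26 with an SE of 0.13 (adjusted p = 0.262), beside -0.28. The median over members was 0.0075 against 0.0053 over all tested genes.

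The relatives of each member were counted from fixed lists, without a test of the list, and each count stands beside the 1.5%, 0.327% and 3.87% of all tested genes that passed in the 3 comparisons. Of the orthologs of other risk genes, 37 of 40 were tested, of which 6 rose and 0 fell in APP/PS1 against WT mice, 0 passed in APP/PS1/FTnKO against APP/PS1, and 5 rose in APP/PS1/FTnKO against WT. Trem2, a lipid-sensing receptor of microglia, rose from 12.3 to 66.5 CPM in APP/PS1 mice (log2 fold change 2.37, SE 0.26), Fcer1g, the signalling chain of Fc receptors, from 6.03 to 17.3 (1.501, SE 0.21) and Grn, which encodes progranulin, from 54.4 to 97.3 (0.82, SE 0.11). In APP/PS1/FTnKO against WT mice the log2 fold changes of these genes were 1.95, 1.17 and 0.56. Of the myeloid transcription factors other than Spi1, 13 of 15 were tested and 4 rose in APP/PS1 against WT mice. They include Irf8 (log2 fold change 1.54, SE 0.22), Irf5 (0.96, SE 0.19) and Ikzf1 (0.78, SE 0.14), which regulate myeloid and lymphoid genes. Irf8 and Irf5 were also the 2 that rose in APP/PS1/FTnKO against WT mice.

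In the Siglec family of Cd33, 6 of 8 were tested and 3 rose in APP/PS1 against WT mice: Siglech, from 16.5 to 26.7 CPM, and the scarce Siglecf and Cd22, from 0.414 to 1.82 and from 0.0931 to 0.995. Of these, 2 rose in APP/PS1/FTnKO against WT mice, Siglecf (log2 fold change 2.12, adjusted p = 0.0132 in edgeR) and Cd22 (3.32, adjusted p = 0.0329), and 0 passed between the transgenic genotypes. In the Ms4a cluster 4 of 17 were tested and 0 passed in any comparison in edgeR. Ms4a6d has the close paralogs Ms4a6b and Ms4a6c, and the sources used here do not say whether reads that match several of them were counted, so its value is uncertain. Of the transporters related to Abca7, 9 of 11 were tested and 0 passed in any comparison in edgeR. Of the 18 genes of the retromer and of sorting receptors, the relatives of Sorl1, and of the 16 genes of focal adhesion kinase signalling, the relatives of Ptk2b, 0 passed in any comparison in edgeR.

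In all, 2 of 32 genes of clathrin endocytosis and membrane bending fell in APP/PS1/FTnKO against WT mice, Ap2a2 (log2 fold change -0.29, SE 0.056) and Ap2a1 (-0.22, SE 0.047), both subunits of the AP2 adaptor, where 3.87% of all tested genes passed, and 0 passed in the other comparisons. Of 24 genes of microtubule-associated proteins and tau kinases, 1 fell in APP/PS1 against WT mice, Stmn4, a stathmin that binds tubulin (-0.20, SE 0.043). In APP/PS1/FTnKO against WT mice 4 fell, among them Stmn4 (-0.30, SE 0.043), Cdk5r1, the activator of the tau kinase Cdk5 (-0.37, SE 0.075), and Ttbk1, a tau kinase (-0.33, SE 0.071). Mapt itself had -0.10 in that comparison (SE 0.057, adjusted p = 0.297). Excitatory neuron markers moved the same way as these genes. Their sum was 6165 to 7902 CPM in APP/PS1/FTnKO, 6996 to 9607 in APP/PS1 and 7445 to 9902 in WT mice. All 8 markers had a log2 fold change below 0 in APP/PS1/FTnKO against WT mice (median -0.19), where 51.3% of all tested genes were above 0. Of the 8, 1 passed in edgeR, Slc17a7, the vesicular glutamate transporter (-0.46, SE 0.12, adjusted p = 0.0396). In APP/PS1 against WT mice 1 of the 8 was above 0 (median -0.059). Of 8 interneuron markers, 0 were above 0 in APP/PS1 against WT and 3 in APP/PS1/FTnKO against WT. The part of excitatory neuron markers in the falls of these genes was not tested.

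Markers of microglia were higher in the comparison in which Spi1 rose and in which Cd33, Ms4a6d and Abca7 did not pass, and their part in that result was not tested. The sum of 10 homeostatic microglia markers ran from 378 to 440.0 CPM for WT, from 477 to 763 for APP/PS1 and from 369 to 585 for APP/PS1/FTnKO mice. The sum of 12 markers of activated microglia ran from 333 to 365, from 538 to 1126 and from 427 to 901 in the same order. In APP/PS1 against WT mice 4 of 10 homeostatic markers rose, among them Siglech (log2 fold change 0.70, SE 0.13) and Csf1r (0.58, SE 0.11), and 11 of 12 activated markers rose, led by Cst7, Itgax and Clec7a. In APP/PS1/FTnKO against APP/PS1 mice 0 of both lists passed in edgeR. There 0 of 10 homeostatic markers (median log2 fold change -0.25) and 1 of 12 activated markers (median -0.30) had a log2 fold change above 0, where 49.5% of all tested genes did, and Spi1, at -0.20, had the same sign. Against WT mice, 1 homeostatic and 10 activated markers rose in APP/PS1/FTnKO mice. Of the 8 astrocyte markers 1 rose in each comparison with WT, Gfap. The summed monocyte and neutrophil markers stayed between 4.31 and 9.92 CPM in all 17 mice, and only 3 of those 8 genes passed the filter. In bulk tissue, fewer cells of a type and less RNA per cell cannot be told apart, and neither can more cells and more RNA per cell.

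The 4 members that microglia make, of which Abca7 is made in neurons too, were also set against the homeostatic markers, and the direction of Spi1 depended on the denominator. Per 1000 CPM of those markers, Spi1 had 6.08 ± 1.22 CPM in WT, 7.59 ± 1.43 in APP/PS1 and 7.69 ± 1.41 in the knockout mice (SD, n = 5, 6 and 6). Abca7 had 100.3 ± 8.57 in WT and 71.7 ± 14.4 in APP/PS1 mice, and Ms4a6d had 2.93 ± 0.636 and 2.03 ± 0.599. Cd33 had 27.8 ± 2.89 in WT and 24.0 ± 3.26 in APP/PS1 mice. The log2 differences between APP/PS1 and WT mice were 0.32 for Spi1 (exact permutation test, two-sided, p = 0.0952), -0.22 for Cd33 (exact p = 0.0693), -0.56 for Ms4a6d (exact p = 0.0411) and -0.50 for Abca7 (exact p = 0.013). With adjustment over the 12 tests (4 genes, 3 comparisons) none passed, the lowest adjusted p of the exact permutation tests being 0.141. For APP/PS1/FTnKO against APP/PS1 the log2 differences were 0.022 for Spi1, 0.20 for Cd33, 0.23 for Abca7 and -9.89e-05 for Ms4a6d, and their exact permutation p-values were 0.0823 to 1. The denominator was itself higher in APP/PS1 mice, as given above, so a member with little change has a lower ratio. This holds for Abca7, whose own log2 fold change was 0.11. The 12 activated markers had a mean sum of 350 CPM in WT and 938 in APP/PS1 mice, and with them as denominator the log2 difference of Spi1 between these genotypes was -0.45 in place of 0.32, while Cd33, Ms4a6d and Abca7 had -0.99, -1.33 and -1.27. These values contain the rise of the denominator and are given as a description.

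**Figure D3:**
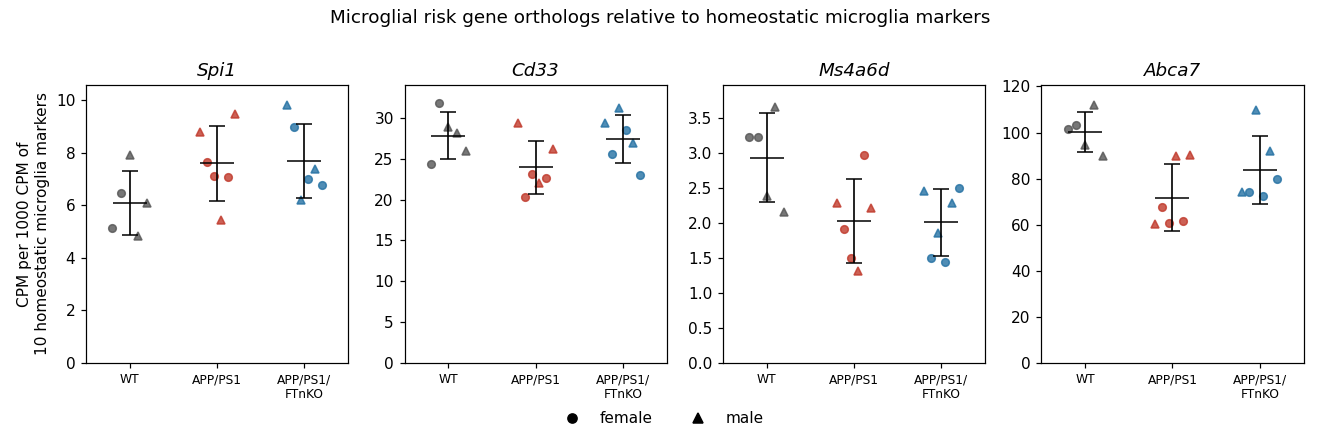
CPM of Spi1, Cd33, Ms4a6d and Abca7 per 1000 CPM of 10 summed homeostatic microglia markers (y axis, linear from 0) in 17 mice by genotype, with bars for the mean and SD. Abca7 per marker was 89.8 to 112 in WT and 60.1 to 90.3 in APP/PS1 mice, while Spi1 per marker reached higher values in APP/PS1 than in WT mice, a direction that turns with activated markers as denominator.

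The RNA integrity number (RIN), a measure of RNA quality in the labels, moved with several members. WT mice had a RIN of 8.5 to 8.8 (median 8.7), APP/PS1 mice one of 7.7 to 8.7 (median 8.2) and APP/PS1/FTnKO mice one of 7.6 to 8.7 (median 8.6). The mouse with the lowest RIN of each transgenic genotype, 16975 (APP/PS1) and 16974 (APP/PS1/FTnKO), both male, had the highest Spi1, Cd33 and Cd2ap and the lowest Sorl1 of its genotype. Over the 12 transgenic mice Spi1 fell with RIN (Pearson r = -0.80, permutation p = 0.00091, adjusted over 10 members 0.0091; Spearman rho = -0.83, permutation p = 0.00106, adjusted 0.0106). Without these 2 mice r was -0.61, and within the genotypes it was -0.83 for APP/PS1 (exact permutation p = 0.0208) and -0.75 for APP/PS1/FTnKO mice (exact permutation p = 0.0917).

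Cd33 had r = -0.69 (permutation p = 0.0104, adjusted 0.0348) and rho = -0.65 (permutation p = 0.026, adjusted 0.0651), and Sorl1 had r = 0.72 (permutation p = 0.00859, adjusted 0.0348) and rho = 0.69 (permutation p = 0.0151, adjusted 0.0651). Without the same 2 mice r was -0.35 for Cd33 and 0.53 for Sorl1, so that the relation of Cd33 rests largely on them. Within the genotypes r for Cd33 was -0.76 for APP/PS1 (exact permutation p = 0.0639) and -0.65 for APP/PS1/FTnKO mice (exact permutation p = 0.125), and for Sorl1 it was 0.92 (exact permutation p = 0.0153) and 0.59 (exact permutation p = 0.2). Cd2ap had r = -0.59 (permutation p = 0.0455, adjusted 0.091) and rho = -0.59 (permutation p = 0.047, adjusted 0.0941), and r was -0.0075 without the 2 mice. Within the genotypes r for Cd2ap was -0.82 for APP/PS1 (exact permutation p = 0.00556) and -0.77 for APP/PS1/FTnKO mice (exact permutation p = 0.0333). The other members had adjusted permutation p-values for r of 0.061 (Ptk2b, r = 0.65) to 0.747 (Bin1).

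With RIN as a covariate the log2 fold change of Spi1 in APP/PS1 against WT mice was 0.56 (edgeR, adjusted p = 0.403), and among those whose RIN reached 8 it was 0.75 (adjusted p = 0.230). Sorl1 in the same comparison was -0.044 and -0.16 in these fits, and Cd33 was 0.17 and 0.21. Cd2ap in APP/PS1/FTnKO against APP/PS1 mice was 0.29 with the covariate (edgeR, adjusted p = 0.0779) and 0.28 among those whose RIN reached 8 (adjusted p = 0.305). The RIN differed between the genotypes, and its part in these differences was not tested beyond these fits.

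**Figure D4:**
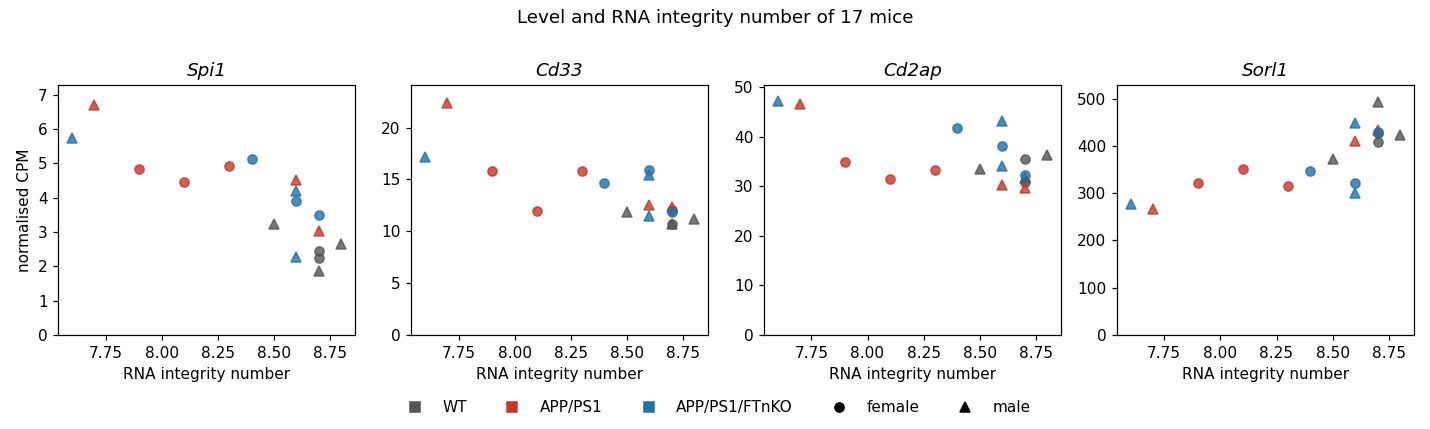
Normalised CPM (y axis, linear from 0) against RIN (x axis) for Spi1, Cd33, Cd2ap and Sorl1 in 17 mice, coloured by genotype, with circles for females and triangles for males. The WT mice sit at a RIN of 8.5 to 8.8, and mice 16974 and 16975, at 7.6 and 7.7, have the highest Spi1, Cd33 and Cd2ap and the lowest Sorl1 of their genotypes.

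By sex, 0 of 10 members passed in edgeR, where 0.0689% of all genes did, and the largest sizes were -0.096 for Cd2ap (SE 0.089) and -0.093 for Abca7 (SE 0.057), as log2 female over male. The difference between the sexes in each of the 3 comparisons was also tested, with 0% of all genes passing in each of the 3 and 0 of 10 members. Spi1 had a log2 fold change of 1.01 in females and 0.89 in males for APP/PS1 against WT mice. With 2 female WT mice left, these differences were measured with SEs of 0.087 to 0.58.

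The genes whose levels followed each member most closely from mouse to mouse were found by Pearson r of log2 CPM, after the means of genotype and sex were taken out, over the 17 mice, which share one set of libraries. For Sorl1 they were Fem1b (r = 0.98), Clec16a (0.98) and Lrp11 (0.97). For Spi1 they included the ribosomal protein gene Rps12 (0.95) and the mitochondrial Cox7a2l (0.93). For Cd33 they were Pla2g7 (0.95), Il18 (0.94) and the ribosomal Rpl5 (0.93), and for Cd2ap Rpl5 (0.95), Tpt1 (0.93) and Ddx60 (0.92). Ptk2b was most like Napg (0.94), Dlg3 (0.93) and Pdhx (0.92), and Mapt like Fbxo34 (0.95) and Nr2c2 (0.90). Bin1 was most like Tmem40 (0.94), Picalm like Thoc2 (0.89), Abca7 like Cflar (0.88) and Ms4a6d like Gm5805 (0.92). Each r is among the highest over 17414 tested genes on 17 mice, so its size comes in part from that choice. Members also followed each other, with r of -0.89 for Sorl1 and Cd33 and 0.87 for Cd33 and Cd2ap. It was -0.86 for Sorl1 and Spi1, but -0.074 for Abca7 and Spi1. Spi1, Cd33, Cd2ap and Sorl1 also moved with RIN, whose part in these likenesses was not tested.

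WT mouse 19622 is given for the 10 genes on a scaling of all 18 mice. In this mouse 55.4% of 17285 tested genes lay outside the range of the other 17, so a member outside that range is not unusual. Ptk2b was nearly lost in this mouse, with 8.31 CPM (165 reads) against 460 to 583 CPM in the other 17. That is 61.2-fold below their median. Abca7 was 2.65 times the median of the others, with 112 CPM against 38.5 to 53.0, and Sorl1 was 2.32 times, with 863 CPM against 268 to 496. Picalm was also above the range, at 1.29 times the median. Spi1 (0.856 CPM from 17 reads, against 1.86 to 6.74) and Cd33 (5.39 CPM, against 10.7 to 22.5) were below the range, and its summed homeostatic microglia markers were 225 CPM. Bin1, Ms4a6d, Cd2ap and Mapt were within the range of the others. With this mouse among the WT, Sorl1 had a log2 fold change of -0.49 in APP/PS1 against WT mice in place of -0.28, Abca7 -0.24 in place of 0.11 and Ptk2b 0.21 in place of -0.063, none of which passed.

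**Figure D5:**
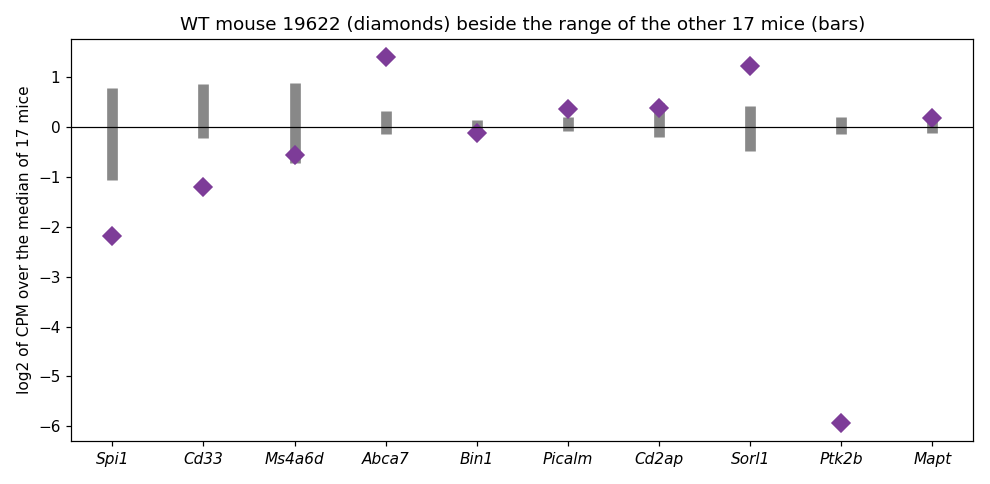
Level of the 10 genes in WT mouse 19622 (diamonds) as the log2 of its CPM over the median CPM of the other 17 mice (y axis, 0 is the median), beside the range of those 17 mice (bars). Ptk2b lies far below, Spi1 and Cd33 below, and Abca7, Sorl1 and Picalm above the bars. Of 17285 tested genes, 55.4% lay outside the range of the other 17 mice.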

How the data were processed

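RNA of the frontal cortex was read by the authors as 150-bp paired stranded mRNA libraries, trimmed with Trimmomatic 0.33, aligned to GRCm38 with HISAT2 2.1.0 and counted per gene with featureCounts (version, strandedness, treatment of multi-mapping reads and annotation: not given in the sources used here). As deposited, the values are the authors' raw counts per gene, without normalization, for 18 mice, and 0 columns were unused. The members and lists were chosen with earlier results of these data known.

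Counts were fitted with edgeR 4.0.16 in R 4.3.3 (TMM, quasi-likelihood test, filterByExpr at 10 counts, the 3 genotypes in 1 fit with sex as a term) on the 17 mice other than WT 19622, with adjusted p-values over all tested genes and a threshold of 0.05. CPM are counts scaled by the TMM-normalised library size. Members were related to microglia markers with two-sided exact permutation tests. The relations to RIN (12 mice, 100000 resamples, exact within a genotype) were added after the values had been seen. Levels per length used the union of exons. Other settings tried were limma-voom (limma 3.58.1), DESeq2 1.42.0, RLE, other filters, a robust spread, no sex term, RIN as covariate, RIN of at least 8, the genotypes compared alone, all 18 mice, and each mouse left out. The test was checked on simulated counts. At 15925432 to 21030935 counts a mouse, counting error is small except for Ms4a6d, Spi1 and Cd33, the last with 181 to 217 reads per WT mouse. The p-values set a difference or a relation against the variation between mice. Genes named are the members, up to 3 called genes per list and direction, and up to 3 genes most like each member. Some genes of this rule are not reported here.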

Additional observations from a re-analysis of the deposited data

Results flagged for a closer look

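In 40 sets of values (10 members in each genotype, and in WT mice with and without 19622), 8 had a mouse whose gap to the nearest of the others was large for the range of its group by Dixon's criterion. Chance flags about 1 in 20 sets, but these sets share mice and are not independent. WT mouse 19622, already set apart, gave 5 of the 8, with Ptk2b at 8.31 CPM (nearest WT mouse 495.5), Sorl1 at 863 (nearest 496), Abca7 at 112 (nearest 44.6), Picalm at 209.9 (nearest 163) and Cd33 at 5.39 (nearest 10.7). APP/PS1 mouse 16975, which had the lowest RIN of its genotype, gave 2, with Cd33 at 22.4 CPM (nearest 15.8) and Cd2ap at 46.7 (nearest 35.0). APP/PS1/FTnKO mouse 19720 had Abca7 at 52.5 CPM (nearest 43.3). The rule looks only at values within a group, so it could not flag a difference between the sexes or between comparisons.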

How the results depend on the processing

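The 1 call among the members, Spi1 in APP/PS1 against WT mice, held with DESeq2, RLE, no filter, a robust spread, no sex term and only the genotypes compared, and the count of members became 0 with all 18 mice, limma-voom, a minimum count of 50 (adjusted p = 0.0503, Ms4a6d not tested), RIN as covariate and RIN of at least 8. With 1 mouse left out it was 0 to 1, the call kept without 16974, 18973, 19619, 19744 or 19101 and lost without any of the other 12, the log2 fold change of Spi1 staying between 0.80 and 1.06 (adjusted p 0.0153 to 0.144). In APP/PS1/FTnKO against WT mice the count became 1, for Spi1, with DESeq2 and with no filter, and was 0 to 1 with 1 mouse left out (1 without 18973). In APP/PS1/FTnKO against APP/PS1 mice it stayed 0 in every fit.

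All genes called, 261 in APP/PS1 against WT mice, became 468 with DESeq2, 452 with no filter, 84 with RIN as covariate and 120 at RIN of at least 8, and 124 to 465 with 1 mouse left out. The 57 of APP/PS1/FTnKO against APP/PS1 became 2 with 18 mice, 253, 104, 261 and 14 in those same 4 fits, 5 with only the genotypes compared, and 10 to 81 with 1 mouse left out. The 674 of APP/PS1/FTnKO against WT became 261 with 18 mice, 1321 with DESeq2, 388 with RIN as covariate, 368 at RIN of at least 8, and 206 to 987 with 1 mouse left out.

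No member below passed the threshold, and its log2 fold change changed sign. With 18 mice these were Abca7 -0.24, Cd2ap -0.037 and Ptk2b 0.21 (APP/PS1 against WT) and Picalm -0.059, Abca7 -0.26 and Ptk2b 0.17 (APP/PS1/FTnKO against WT). With RIN as covariate they were Ms4a6d -0.16, Cd2ap -0.17 and Ptk2b 0.039 (APP/PS1 against WT), Sorl1 -0.086 and Cd33 0.048 (APP/PS1/FTnKO against APP/PS1) and Bin1 -0.0045 and Picalm -0.016 (APP/PS1/FTnKO against WT). At RIN of at least 8 they were Cd2ap -0.11, Sorl1 -0.018, Cd33 0.070 and Picalm -0.0097 in the same comparisons. With 1 mouse left out the ranges were, for APP/PS1 against WT, -0.067 to 0.0013 for Bin1, -0.079 to 0.23 for Ms4a6d and -0.066 to 0.097 for Cd2ap. For APP/PS1/FTnKO against APP/PS1 they were -0.070 to 0.085 for Sorl1, -0.073 to 0.018 for Abca7, -0.13 to 0.081 for Cd33 and -0.044 to 0.027 for Mapt. For APP/PS1/FTnKO against WT they were -0.024 to 0.036 for Bin1 and -0.014 to 0.017 for Picalm.

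Per homeostatic marker 0 of 12 tests passed, also with 18 mice and with each mouse left out, and 6 passed with the activated markers as denominator (Cd33, Ms4a6d and Abca7 against WT), a denominator that itself rose. Spi1 then changed sign, to -0.45 in APP/PS1 and -0.36 in APP/PS1/FTnKO against WT, and Ms4a6d was 0.066 in APP/PS1/FTnKO against APP/PS1. Cd33 in APP/PS1/FTnKO against WT was 0.015 with 18 mice, and -0.067 to 0.030 with 1 mouse left out, when Spi1 was -0.070 to 0.091 and Ms4a6d -0.12 to 0.12 in APP/PS1/FTnKO against APP/PS1. The cause of the other changes was not tested. No paired analysis was possible because each mouse has a number of its own.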
